A study of Mus musculus with 12 samples.

Results

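Lamina-associated domains (LADs) are long stretches of chromatin that touch the nuclear lamina, the protein meshwork under the nuclear envelope, and in most cell types they are poor in genes and low in transcription. The regions described here are 100-kb bins of the mouse genome that were in LADs in Rif1-depleted 4-cell embryos and in control 8-cell embryos, and outside LADs in control 4-cell embryos and in Rif1-depleted 8-cell embryos. They are called shared-gain bins below. Of 23849 bins on chromosomes 1 to 19, 703 were of this kind (2.95%), which is 70.3 Mb of a span of 2384.9 Mb. The bins were chosen from these same LAD calls, so their state in the 4 lists is a description with no test.

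The calls come from DamID. In this assay Dam, an adenine methyltransferase of bacteria, is fused to lamin B1 and marks DNA near the lamina at the sequence GATC. All embryos had the label genotype (C57BL/6J xCBA) x DBA/2J, and received 20 µM siRNA (siControl or siRif1) by injection as zygotes, 17 to 18 h after hCG. At 46 to 48 h all were injected as late 2-cell embryos with AID-Dam-LaminB1, the auxin-sensitive fusion (20 ng/μL), with Tir1, the auxin receptor (250 ng/μL), and with membrane-eGFP (100 ng/μL), and were kept in 500 µM auxin, which removes the fusion. The 4-cell groups were freed of auxin at 54 h and collected at 60 to 62 h, the 8-cell groups at 66 h and 72 to 74 h. Each of the 4 groups (siControl and siRif1 at both stages) had 3 replicates, 12 in all. A replicate pooled 16 to 24 blastomeres, which is 4 to 6 embryos of the earlier stage or 2 to 3 of the later one. Each group's LADs were analysed as 1 list made from all 3 replicates. A list therefore carries neither a replicate error nor a depth, and differences between lists could not be tested. The 2 stages are different embryos, so a bin that is LAD in siRif1 4-cell and not in siRif1 8-cell embryos was not followed in time. The lists hold no RNA, so neither the knockdown nor the stage could be checked, and they hold no score per bin, so bins just inside or just outside a threshold cannot be given.

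RIF1 is a chromatin protein that brings protein phosphatase 1 to origins of DNA replication and keeps large late-replicating domains late. Late-replicating domains and LADs cover much of the same DNA in differentiated cells. In the mouse embryo, LADs are built anew after fertilisation and are rearranged in the first divisions, which is the setting in which RIF1 depletion was examined.

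Promoters are shown for 4 genes of the shared-gain bins, because the 4 letters that Dam methylates can be seen in them. They are RefSeq sequences of build GRCm38.p6 from 250 bases before to 50 bases after a transcription start, in lower case with every GATC in capitals. Pcdh15, a protocadherin of hair cells and photoreceptors, lies on the plus strand of chr10:73821617-73821916. The start used for Pcdh15 (73821867) is an internal one, since the gene runs from 73096277 to 74649831. Sult1c2, a sulfotransferase, lies on the minus strand of chr17:53845909-53846208. Pramel46, of a leucine-rich repeat family of germ cells and early embryos, lies on the minus strand of chr5:95272706-95273005. Psg18, a pregnancy-specific glycoprotein of the placenta, lies on the minus strand of chr7:18354958-18355257.
Pcdh15: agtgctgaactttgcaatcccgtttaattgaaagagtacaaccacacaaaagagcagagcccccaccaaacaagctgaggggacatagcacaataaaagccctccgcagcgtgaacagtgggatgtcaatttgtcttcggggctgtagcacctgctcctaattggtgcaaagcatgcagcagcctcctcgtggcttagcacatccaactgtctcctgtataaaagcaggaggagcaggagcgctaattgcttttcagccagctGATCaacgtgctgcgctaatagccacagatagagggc
Sult1c2: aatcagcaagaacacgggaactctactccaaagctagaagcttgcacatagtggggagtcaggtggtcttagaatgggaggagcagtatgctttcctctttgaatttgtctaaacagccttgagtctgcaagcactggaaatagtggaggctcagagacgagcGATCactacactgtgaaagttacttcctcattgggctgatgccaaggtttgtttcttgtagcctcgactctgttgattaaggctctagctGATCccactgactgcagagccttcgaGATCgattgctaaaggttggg
Pramel46: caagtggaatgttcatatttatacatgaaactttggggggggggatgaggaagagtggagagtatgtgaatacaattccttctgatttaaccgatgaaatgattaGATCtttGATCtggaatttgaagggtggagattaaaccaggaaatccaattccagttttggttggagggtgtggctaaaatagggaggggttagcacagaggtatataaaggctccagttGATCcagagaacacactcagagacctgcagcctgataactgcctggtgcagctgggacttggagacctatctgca
Psg18: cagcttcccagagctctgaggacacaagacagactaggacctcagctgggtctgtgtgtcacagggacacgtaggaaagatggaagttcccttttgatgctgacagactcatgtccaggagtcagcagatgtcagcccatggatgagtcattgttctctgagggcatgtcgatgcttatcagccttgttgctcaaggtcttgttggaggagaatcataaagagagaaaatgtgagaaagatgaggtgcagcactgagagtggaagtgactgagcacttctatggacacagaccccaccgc
GATC occurred 1 time in the Pcdh15 promoter, 3 times in those of Sult1c2 and Pramel46 and 0 times in that of Psg18. GATC reads the same on both strands and cannot overlap itself. Pramel46 was not in shared-gain bins when all LAD borders were moved by 100 kb, outward or inward. A promoter without GATC says nothing of contact with the lamina, since the lists give LADs in steps of 100 kb, far longer than a promoter.

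Of the 16 combinations in which a bin can be LAD or not in the 4 lists, the shared-gain combination was the tenth by size, and it was the second largest of the 6 combinations with exactly 2 lists. The largest of those 6 was LAD in both 8-cell lists alone, with 1147 bins. The mirror image, LAD in siControl 4-cell and siRif1 8-cell embryos alone, was the smallest of all 16, with 194 bins. The siControl 4-cell list covered 32.9% of the span, while siRif1 4-cell LADs covered 43.5%, siControl 8-cell LADs 44.7% and siRif1 8-cell LADs 42.9%, and the part of this difference in the sizes of the combinations was not tested.

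**Figure D1:**
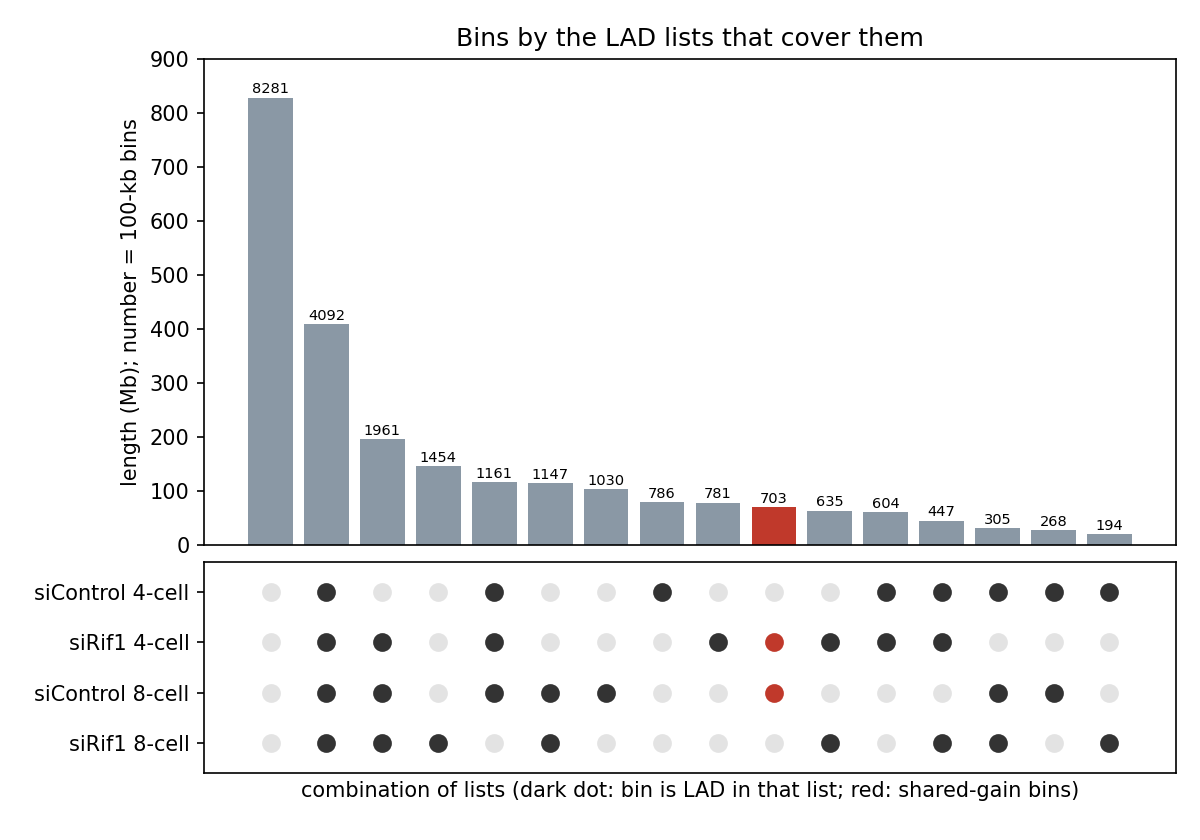
Length in Mb (bars) and number of 100-kb bins (counts printed on the bars) for each of the 16 combinations of LAD lists, with dark dots for the lists in which the bins are LAD. The shared-gain combination (red) holds 703 bins, and its mirror image, at the far right, holds 194.

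The 4 contrasts that the rule combines share lists with one another, so their overlap is fixed in part by construction. At the 4-cell stage, 4080 bins were LAD with siRif1 but outside LADs with siControl (17.1% of all bins), and 17.2% of these were shared-gain bins. With siControl, 4841 bins were LAD at the 8-cell stage and outside LADs at the 4-cell stage (20.3%), of which 14.5% were shared-gain. At the 8-cell stage, 3162 bins were LAD in siControl and not in siRif1 embryos (13.3%), and shared-gain bins were 22.2% of them. Between the siRif1 lists, 3249 bins were LAD at the 4-cell stage and not at the 8-cell stage (13.6%), and shared-gain bins were 21.6% of them. LADs of siRif1 4-cell and siControl 8-cell embryos had 7917 bins in common (33.2%), and 8.88% of those were shared-gain. Shared-gain bins made up 6.77% of the siRif1 4-cell LADs and 6.59% of the siControl 8-cell LADs.

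Neighbouring shared-gain bins joined into 239 stretches. The median stretch was 200 kb long (quartiles 100 and 400 kb), 92 stretches were a single bin, 50 were 500 kb or longer and 8 were 1 Mb or longer. The 50 stretches of 500 kb or more held 48.8% of the shared-gain bins. In the most similar combinations, the median stretch was 300 kb for bins LAD in every list but siControl 4-cell (431 stretches), 200 kb for bins LAD in siRif1 4-cell alone (270) and 200 kb for bins LAD in siControl 8-cell alone (307). Single bins made up 38.5% of the shared-gain stretches, against 21.6%, 36.7% and 38.1% in that order.

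Most shared-gain stretches were part of a longer LAD. The siRif1 4-cell LAD around a stretch had a median length of 1500 kb, and the siControl 8-cell LAD one of 1700 kb. A stretch reached an end of the siRif1 4-cell LAD around it in 127 of 239 cases and an end of the siControl 8-cell LAD in 130, while 44 lay inside both. In all, 14 stretches were a whole siRif1 4-cell LAD, 11 were a whole siControl 8-cell LAD, and 1 was both. Of the 644 siRif1 4-cell LADs, 197 held a shared-gain bin (30.6%), and 137 of these also held a bin that was LAD in siControl 4-cell embryos. Of the 746 siControl 8-cell LADs, 197 held one too (26.4%), and 150 of these also held a bin that was LAD in siRif1 8-cell embryos.

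The bins beside the stretches give their place relative to the lists in which they are not LAD. Relative to siControl 4-cell LADs, 109 of 239 stretches had a LAD on 1 side, 6 filled a gap between LADs and 124 had none on either side (51.9%). Relative to siRif1 8-cell LADs, 134 had a LAD on 1 side, 9 lay in a gap and 96 had none on either side (40.2%). In 32 stretches neither list had a LAD on either side, and in 49 each had a LAD on 1 side. The nearest siControl 4-cell LAD was at most 500 kb away for 171 stretches (71.5%), and the nearest siRif1 8-cell LAD for 185 (77.4%). The farthest were 6700 kb and 4700 kb away. Such distances were not computed for other bins outside LADs, and the median stretch outside all LADs was 700 kb long.

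Of the 473 ends of stretches that were not an end of the span, 126 adjoined bins that were LAD in every list but siControl 4-cell and 99 adjoined bins that were LAD in every list but siRif1 8-cell. Another 92 adjoined bins LAD in siRif1 4-cell alone and 84 adjoined bins LAD in siControl 8-cell alone. At 43 ends (9.09%) the siRif1 4-cell and the siControl 8-cell LAD stopped together, at 93 only the first stopped and at 93 only the second. At 84.8% of the ends a single list changed its state, and for the 3 similar combinations this share was 87.0%, 84.5% and 88.7% in the order above.

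The longest stretches, 12 with ties at the tenth place, were 0.9 to 1.3 Mb long and held from 0 to 3 protein-coding genes by gene midpoint. The pair of 1.3 Mb lay on chromosome 10 at 27500001 to 28800000 and on chromosome 9 at 111900001 to 113200000. The first held Ptprk, a receptor tyrosine phosphatase, and Themis, which acts in the development of T cells. On the siRif1 4-cell list it was the left end of a LAD from 27500001 to 33100000, and on the siControl 8-cell list the right end of a LAD from 26900001 to 28800000. The nearest siControl 4-cell LADs ended at 27300000 and began at 29400001, and the nearest siRif1 8-cell LADs ended at 26400000 and began at 30200001. The stretch on chromosome 9 held Arpp21, a phosphoprotein gene of neurons that binds RNA, and was a gap between siRif1 8-cell LADs that adjoined it on both sides.

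The stretches of 1.2 Mb lay on chromosome 13 at 16400001 to 17600000, with Sugct, a CoA transferase of glutarate metabolism, and on chromosome 16 at 6400001 to 7600000, with Rbfox1, a splicing regulator of neurons and muscle. Those of 1.1 Mb lay on chromosome 10 at 11500001 to 12600000, with no gene midpoint, on chromosome 18 at 51400001 to 52500000, with the mitochondrial ferritin gene Ftmt and Srfbp1, and on chromosome 4 at 9600001 to 10700000, with Gdf6, a signalling protein of the bone morphogenetic protein family. The last of these closed a gap between siControl 4-cell LADs that ended at 9600000 and began at 10700001. A 1-Mb stretch on chromosome 14 (111900001 to 112900000) held no gene midpoint and was a gap between siRif1 8-cell LADs that ended at 111900000 and began at 112900001.

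The 4 stretches of 0.9 Mb all held genes, of several kinds. On chromosome 12 (26900001 to 27800000) the gene was Sox11, a transcription factor of neural progenitors. On chromosome 13 (31000001 to 31900000) the genes were the forkhead factors Foxq1, Foxf2 and Foxc1, and both the siRif1 4-cell and the siControl 8-cell LAD began at 31000001. Also on chromosome 13 (9400001 to 10300000) were Dip2c, the histone reader gene Zmynd11 and the muscarinic receptor gene Chrm3, and on chromosome 3 (60800001 to 61700000) the ADP receptor gene P2ry1 and the small GTPase gene Rap2b.

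**Figure D2:**
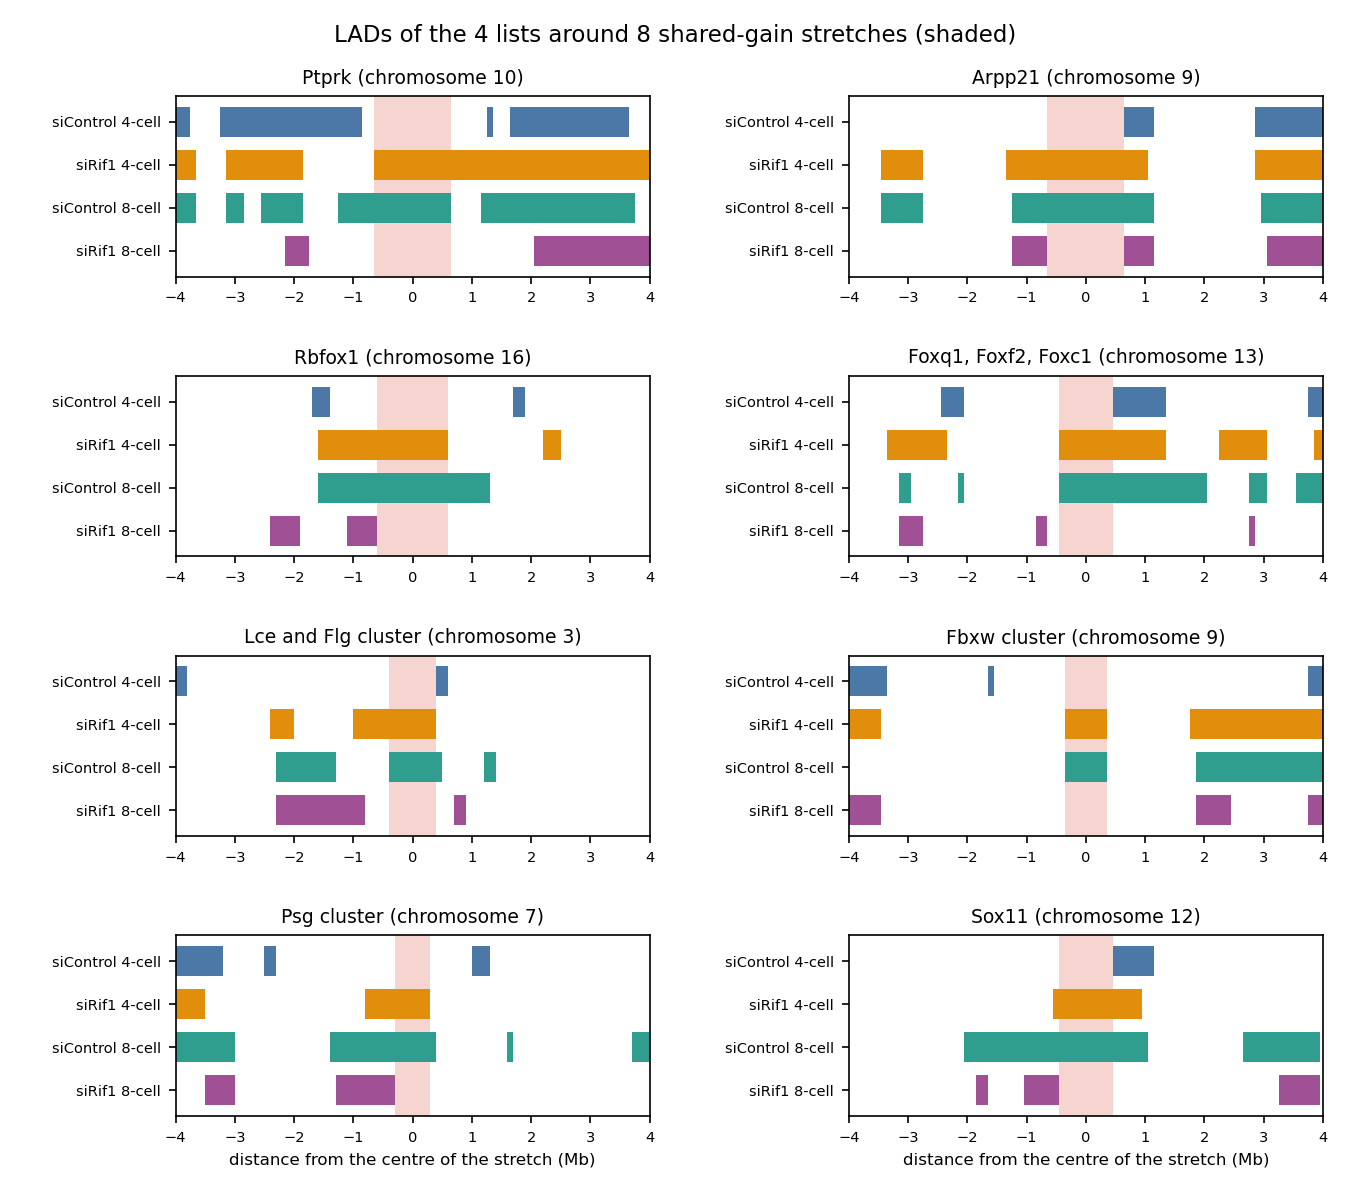
LADs (bars) of the 4 lists within 4 Mb of the centre of 8 shared-gain stretches (shaded), with distance from the centre in Mb on the horizontal axis. The siRif1 4-cell and siControl 8-cell bars cross each shaded stretch, the Fbxw stretch is a whole LAD in both, and the other stretches are part of a longer LAD in both lists.

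Shared-gain bins were unevenly spread over the chromosomes. They made up 6.51% of the span of chromosome 10 (83 bins in 22 stretches), 4.93% of chromosome 16 (46), 4.53% of chromosome 9 (55) and 4.53% of chromosome 7 (63). At the low end were chromosome 6 with 0.82% (12 bins), chromosome 2 with 1.08% (19) and chromosome 5 with 1.28% (19). The mean over chromosomes was 2.97% ± 1.47 (SD, 19 chromosomes, which are not replicates of a condition). On chromosome 10 the lists covered 43.8%, 55.8%, 54.2% and 41.2% for 4-cell embryos with siControl and with siRif1 and 8-cell embryos with siControl and with siRif1, and on chromosome 6 they covered 39.5%, 43.7%, 37.3% and 46.8% in that order. On chromosome 10 the 2 lists in which shared-gain bins are LAD thus had the higher coverage, and on chromosome 6 siControl 8-cell embryos had the lowest. The other 12 chromosomes lay between 1.48% and 4.09%.

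**Figure D3:**
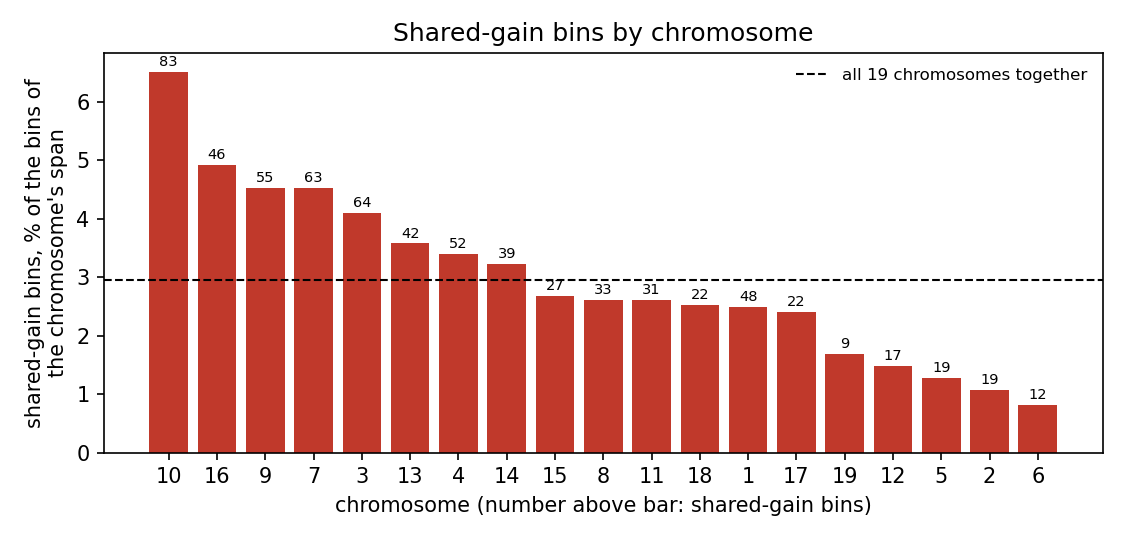
Shared-gain bins as a percent of the bins in each chromosome's span, with the number of bins above each bar and the share over all 19 chromosomes as a dashed line. Chromosome 10 is highest at 6.51% and chromosome 6 lowest at 0.82%.

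Along the chromosomes, shared-gain bins lay more often near the start of the span than near its end. Mouse autosomes have their centromere at the start. In the first 10 Mb of the spans 94 of 1900 bins were shared-gain (4.95%, on 12 of 19 chromosomes), in the last 10 Mb 16 of 1900 (0.842%, on 8) and between them 593 of 20049 (2.96%, on 19). The 94 bins include single long stretches of chromosome 16 (12 bins), chromosome 4 (11), chromosome 10 (11) and chromosome 13 (9), so they are not 94 separate places. Coverage in the first 10 Mb was 40.9% in siControl 4-cell, 56.4% in siRif1 4-cell, 50.5% in siControl 8-cell and 43.2% in siRif1 8-cell embryos, and in the last 10 Mb it was 36.5%, 41.4%, 47.1% and 47.7% in that order. Bins LAD in siRif1 4-cell alone followed the same order (5.11% in the first 10 Mb and 1.47% in the last). Bins LAD in every list but siControl 4-cell also had the higher share in the first 10 Mb (9.11% and 6.63%). Bins LAD in siControl 8-cell alone differed less (4.79% and 4.05%).

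The shared-gain bins were poor in genes. The midpoints of 265 of 20144 protein-coding genes of the span lay in them (1.32%), which is 3.77 genes per Mb against 8.45 in the whole span and 13.97 in bins outside all LADs. Bins LAD in all 4 lists held 4.76 genes per Mb. Among the similar combinations, bins LAD in every list but siControl 4-cell held 3.30 genes per Mb, bins LAD in siRif1 4-cell alone 4.78 and bins LAD in siControl 8-cell alone 7.35. Shared-gain bins had the higher density on 11, 3 and 3 of 19 chromosomes in that order, and on 0 of 19 against bins outside all LADs. They also held 226 long noncoding RNA genes (3.21 per Mb, 5.12 in the span) and 252 pseudogenes (3.58 per Mb, 3.81 in the span).

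Many of the genes were packed in a few stretches. The 13 stretches with 5 genes or more held 115 of the 265 genes (43.4%), while 137 stretches (57.3%) held no gene midpoint. Outside those 13 stretches the density was 2.32 genes per Mb and the median gene length 38.6 kb, against 18.3 kb over all 265 genes and 17.8 kb in the span. The span and the other combinations kept their gene-rich stretches, so the 2.32 and the 38.6 kb have no matched value there. Genes longer than 200 kb made up 12.1% of the 265 (32 genes), 4.67% of all genes, 8.02% of genes in bins LAD in every list but siControl 4-cell, 9.92% in bins LAD in siRif1 4-cell alone and 3.57% in bins LAD in siControl 8-cell alone. Bins LAD in all 4 lists had the higher values, with 253 of 1946 genes over 200 kb and a median length of 27.7 kb. Of the 265 genes, 210 lay wholly inside shared-gain bins.

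**Figure D4:**
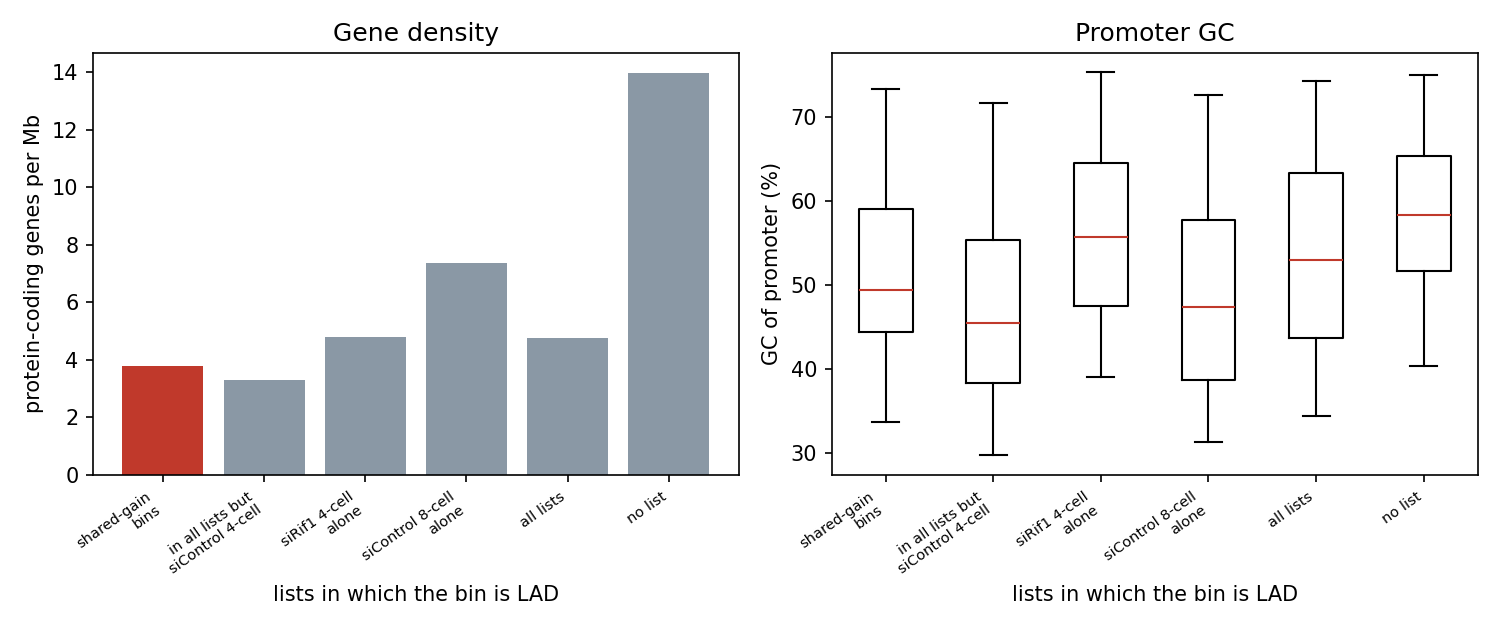
Left, protein-coding genes per Mb in the shared-gain bins (red) and in 5 other combinations. Right, GC content of their promoters, with the median (red line), quartiles (box) and the central 90% (whiskers). Shared-gain bins held 3.77 genes per Mb, and their promoters had a median GC of 49.3%.

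The stretch with the most genes was a part of the epidermal differentiation complex on chromosome 3 (92600001 to 93400000). It held 30 genes, many of them for proteins of the cornified skin layer, such as filaggrin (Flg), Flg2, hornerin (Hrnr), repetin (Rptn), Kprp and the late cornified envelope (Lce) family. All 21 Lce genes of the span lay in it, so none was LAD in siControl 4-cell or siRif1 8-cell embryos. These 21 genes are 1 locus, and the family was chosen after its values were seen. Of all protein-coding genes, 1.32% lay in shared-gain bins. The siRif1 4-cell LAD ran from 92000001 to 93400000 and the siControl 8-cell LAD from 92600001 to 93500000. A siControl 4-cell LAD began at 93400001, next to the stretch, and siRif1 8-cell LADs ended at 92200000 and began at 93700001.

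A family of F-box genes with WD repeats filled a stretch on chromosome 9 (109100001 to 109800000). Its Fbxw genes belong to a rodent cluster, and F-box proteins pick substrates for ubiquitin ligases. This is the stretch that was a whole LAD of both lists, 700 kb long with the same ends in each. It held 15 of the 24 Fbxw genes of the span, lying between Fbxw21 and Fbxw27, and the semaphorin receptor gene Plxnb1. The nearest siControl 4-cell LAD was 1200 kb away and the nearest siRif1 8-cell LAD 1500 kb away. Over all 24 Fbxw genes, 2 were LAD in siControl 4-cell, 16 in siRif1 4-cell, 16 in siControl 8-cell and 0 in siRif1 8-cell embryos. The 15 Fbxw genes of the stretch are 1 locus, chosen after its values were seen, and the share of all protein-coding genes was 1.32%.

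Genes of the pregnancy-specific glycoproteins, secreted by the placenta, lay in a stretch on chromosome 7 (18100001 to 18700000). It held Psg18, Psg28, Psg26, Psg25, Psg27, Psg23, Psg21 and Psg20, the growth factor-like gene Igfl3 and Mill1. The siRif1 4-cell LAD ran from 17600001 to 18700000 and the siControl 8-cell LAD from 17000001 to 18800000, and a siRif1 8-cell LAD ended at 18100000. Over the list of prolactin, Psg and placental cathepsin genes, 8 of 47 were in shared-gain bins (17.0%, against 1.32% of all protein-coding genes), with 0 LAD in siControl 4-cell, 9 in siRif1 4-cell, 20 in siControl 8-cell and 11 in siRif1 8-cell embryos. These 8 genes are 1 locus, so the share rests on a single stretch.

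Receptors for nucleotides formed another small cluster on chromosome 3. The stretch from 59100001 to 59300000 included P2ry12, the platelet ADP receptor, P2ry13, P2ry14 and Med12l, a Mediator subunit gene. A siControl 4-cell LAD ended at 59100000 and a siRif1 8-cell LAD began at 59300001, so each of these lists had a LAD on 1 side. With P2ry1 in the stretch described above, 4 of the 6 P2ry genes of the span were in shared-gain bins, 4 were LAD in siRif1 4-cell and in siControl 8-cell embryos, and 0 in the other lists. They lay in 2 stretches, and the family was chosen after its values were seen. The share of all protein-coding genes in shared-gain bins was 1.32%.

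Other stretches with 5 genes or more held unrelated neighbours, and their genes were chosen after their values were seen. On chromosome 17 (43300001 to 43800000) there were 7, among them Adgrf5, an adhesion receptor, Mep1a, a metalloprotease, Tdrd6, a tudor protein of germ cells, and Cyp39a1, a hydroxylase of oxysterols. It was the right end of a siControl 8-cell LAD from 40500001 to 43800000. On chromosome 1 (43800001 to 44200000) there were also 7, with the peptidase gene Tpp2 and the repair nuclease gene Ercc5, and both a siControl 4-cell and a siRif1 8-cell LAD adjoined it on 1 side. Another on chromosome 1 (66500001 to 67000000) held Unc80, Rpe, Kansl1l, Acadl and Myl1, and it closed a gap between siControl 4-cell LADs.

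Immune receptor genes, Lilr4b and Lilrb4a, shared a stretch on chromosome 10 (51400001 to 51900000) with Fam162b, Gprc6a and the pancreatic factor gene Rfx6, at the left end of a siRif1 4-cell LAD of 51400001 to 54400000. A stretch on chromosome 3 (54900001 to 55300000) held Ccna1, a cyclin of male meiosis, and Sohlh2, a factor of germ cell differentiation, with Sertm1, Spg20 and Ccdc169. It began together with a siRif1 4-cell LAD, and the nearest siControl 4-cell LAD was 300 kb away. On chromosome 9 (124300001 to 124500000), 6 genes, mostly unnamed models, lay at the right end of LADs in siRif1 4-cell and siControl 8-cell embryos.

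Chemosensory receptor genes, the largest clustered families of the mouse, differed in their share in shared-gain bins. Olfactory receptors had 13 of 1097 genes there (1.19%, near the 1.32% of all protein-coding genes), vomeronasal type 1 receptors 11 of 227 (4.85%, in 4 stretches) and vomeronasal type 2 receptors 4 of 120 (3.33%, in 2 stretches). Olfr979 to Olfr986 lay in a stretch of 200 kb on chromosome 9 (40000001 to 40200000), which was a whole siControl 8-cell LAD and lay 1400 kb from the nearest LAD of siControl 4-cell and of siRif1 8-cell embryos. Olfr1113, Olfr1115 and Olfr1116 lay on chromosome 2. Vmn1r55, Vmn1r56 and Vmn1r57 lay in 1 stretch of chromosome 7, and Vmn1r72, Vmn1r73, Vmn1r74 and Vmn1r75 in another. With every LAD shortened by 100 kb at both ends, Vmn1r55, Vmn1r56 and Vmn1r72 were no longer in shared-gain bins. With every LAD extended by 100 kb, Vmn1r57, Vmn1r74 and Vmn1r75 were not. Copies in these families are similar in sequence, and how reads that map to several of them were treated is not given in the sources used here.

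Of the 38 gene lists examined, 11 had a gene in shared-gain bins. Single genes were found for long neuronal and adhesion genes (1 of 41, Pcdh15), potassium channels (1 of 88), Pramel genes (1 of 45, Pramel46), replication initiation and fork genes (1 of 34, Mcm5) and imprinted genes (1 of 43, Atp10a). Cytochrome P450 genes (2 of 93) and the glucuronosyl- and sulfotransferases (2 of 42, Sult1c1 and Sult1c2) had 2 each. Where a list had a single gene there, that gene was from 1.14 to 2.94% of the list. The lists with 2 genes had 2.15% and 4.76% in the order named, and the 2 sulfotransferase genes lay in 1 stretch. Counts of 1 or 2 genes say little about a list as a whole. The other 27 lists, 1338 genes in all, had 0, among them pluripotency (19 genes), germ layer and neural regulators (39), trophectoderm (15), primitive endoderm (12) and 2-cell stage genes (24), zinc finger Zfp genes (377), keratins (109), Hox genes (39), histone genes (72) and cytosolic ribosomal protein genes (77). Since 1.32% of all protein-coding genes lay in shared-gain bins, a count of 0 in a short list is near that background. This does not cover the longer lists, such as the 377 Zfp genes, or the 1338 genes together. Their counts of 0 lie below that share, and the difference was not tested.

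For the named genes, the share of the gene body in LADs shows how borders cut the longest ones. Pcdh15, 1554 kb long, had 54.9% of its body in LADs in siControl 4-cell, 100% in siRif1 4-cell, 100% in siControl 8-cell and 48.5% in siRif1 8-cell embryos. Rbfox1 (1528 kb) had 0%, 100%, 100% and 32.7% in the same order. Lingo2, a leucine-rich repeat gene of neurons (1255 kb), had 32.1%, 56.0%, 56.0% and 8.23%. In each of these the siControl 4-cell and siRif1 8-cell values lay below the other 2. The genes were named for a midpoint in shared-gain bins, so this order is fixed in part by the rule. Agbl1, a carboxypeptidase gene, had 30.2% in siControl 4-cell and in siRif1 8-cell embryos and 100% in the other lists. Sugct, Dip2c and Themis had 100% in siRif1 4-cell embryos and 88.7%, 68.5% and 61.1% in siControl 8-cell embryos, and 0% in the other lists.

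Other genes lay wholly inside or wholly outside LADs in each list. Mcm5, a subunit of the replicative helicase on chromosome 8 (75109468 to 75128439), had 0%, 100%, 100% and 0%. It shared its stretch with Hmox1, the heme oxygenase gene, Tom1, Hmgxb4 and Rasd2. Atp10a, a lipid flippase gene reported as imprinted in some tissues, on chromosome 7 (58656142 to 58830244), Ptprk and Arpp21 likewise had 0%, 100%, 100% and 0%. The rule fixes these values for any gene that lies wholly inside shared-gain bins. Rif1 itself (chromosome 2, 52072815 to 52126769) was outside LADs in all 4 lists, and Lmnb1, which encodes lamin B1, was LAD in siControl 4-cell embryos alone. The values are calls on pooled lists, with no error between replicates.

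**Figure D5:**
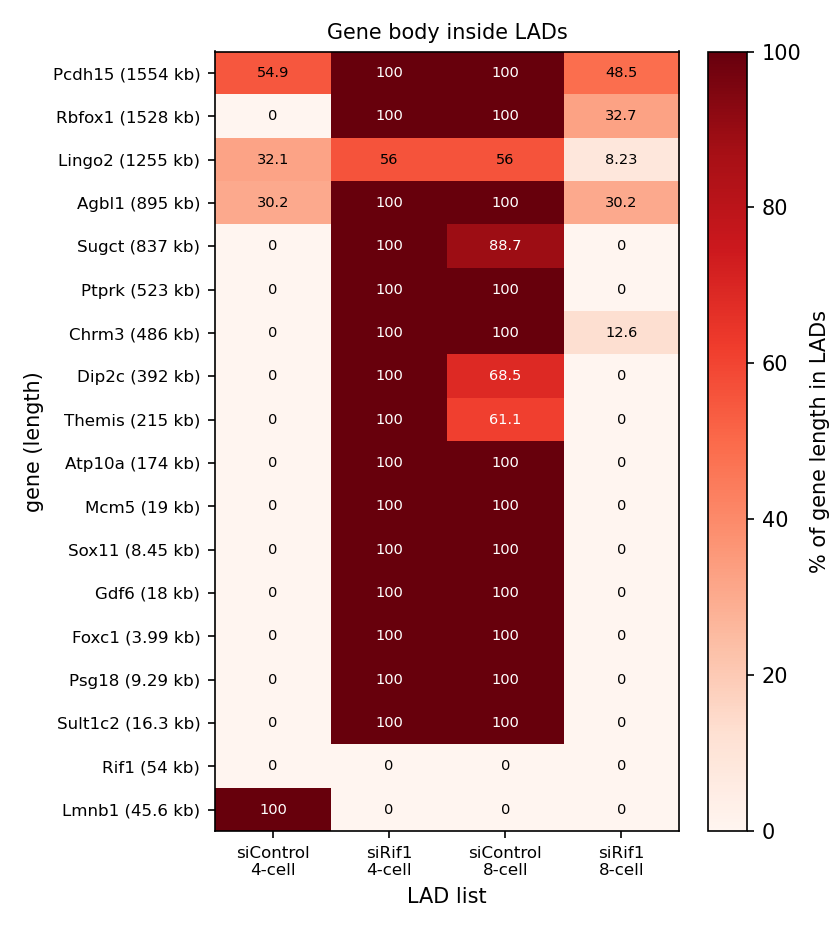
Percent of the length of 18 genes that lies in LADs (colour and printed value) in each of the 4 lists, with gene lengths in kb. The 16 genes of shared-gain bins have their higher values in siRif1 4-cell and siControl 8-cell embryos, an order that the rule fixes in whole or in part. Rif1 is at 0 throughout and Lmnb1 is at 100 in siControl 4-cell embryos alone.

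MicroRNA hairpins had 10 of 891 midpoints in shared-gain bins (1.12%, against 1.32% of protein-coding genes and 2.95% of all bins), so their share was no higher than that of genes. Of the 10, 3 form the cluster of miR-100, let-7a-2 and miR-125b-1 on chromosome 9. This cluster was chosen after its position was seen. It is shown because it is conserved and its microRNAs are known from cell differentiation. The mature RefSeq sequences of build GRCm38.p6, all on the plus strand, are given with the seed (bases 2 to 8) in capitals. They lie at chr9:41531437-41531458 (miR-100-5p), chr9:41536777-41536797 (let-7a-2-3p) and chr9:41581940-41581961 (miR-125b-5p). The 5p arm is given for miR-100 and miR-125b. For let-7a-2 only the 3p arm was at hand, so its 5p sequence and the seed of that arm are not shown.
miR-100-5p: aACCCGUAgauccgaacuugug
let-7a-2-3p: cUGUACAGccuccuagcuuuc
miR-125b-5p: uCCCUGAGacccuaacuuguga
The printed seeds differ, but they come from unlike arms, and the 5p seed of let-7a-2 was not compared. The stretch ran from 41400001 to 41600000 in a siRif1 4-cell LAD from 41200001 to 42300000. It was the left end of a siControl 8-cell LAD from 41400001 to 42200000. A LAD of siControl 4-cell and one of siRif1 8-cell embryos both began at 41600001. The whole microRNA cluster lay in the last bin of the stretch, which adjoins these LADs. If every LAD were extended by a single bin at both ends, that last bin would be LAD in all lists. The cluster would then no longer be in shared-gain bins, so its place there depends on the borders. The hairpin of miR-128-2 lay in the stretch of Arpp21. The lists say nothing of the level of these microRNAs.

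The promoters of genes in shared-gain bins were compared with others by sequence, which the rule did not use. The table of promoters had an entry for 218 of the 265 genes, and 217 protein-coding genes had their first listed transcription start in a shared-gain bin. Their median GC content was 49.3% (quartiles 44.3 and 59.0%), against 56.7% over 16121 promoters of the span and 58.3% for those outside all LADs. Promoters in bins LAD in every list but siControl 4-cell had a median of 45.5%, in siRif1 4-cell alone 55.7% and in siControl 8-cell alone 47.3%. CpG-rich promoters, with GC above 50% and a ratio of observed to expected CpG above 0.6, were 29.0% of the 217 and 46.8% of all, against 18.3% in bins LAD in every list but siControl 4-cell, 46.1% in siRif1 4-cell alone and 22.8% in siControl 8-cell alone.

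At least 1 GATC was present in 124 of the 217 promoters (57.1%), against 46.4% of all promoters of the span, 53.1% for bins LAD in every list but siControl 4-cell, 51.2% for siRif1 4-cell alone and 50.7% for siControl 8-cell alone. Bins LAD in all 4 lists had 46.2%, close to the 46.0% of bins outside all LADs. Tandem copies share promoter sequence, so these are not 217 independent sequences. Without the genes of the 13 stretches with 5 genes or more, 123 promoters had a median GC of 51.3%, 37.4% were CpG-rich, and 55.3% of them held GATC. The promoter sets of the span and of the other combinations were not reduced in this way. No promoter share was tested against another.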

How the data were processed

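LADs were mapped by DamID in 12 samples (4 groups of 3 replicates). The authors deposited 1 list per group, made from all replicates per the labels' series text. The deposited BED files give LAD starts and ends on a 100-kb grid, and their score field is 0 in every row. Per the submitters' processing notes, the build was GRCm38 (mm10) and the tools included Bowtie2, Picard, SAMtools and Trimmomatic, without versions. How LADs were called, and whether Dam alone served as a control, is not given in the sources used here. The depth is unknown.

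Each bin from the first LAD start to the last LAD end of any list was marked LAD where an interval covered it (Python 3.11.15, pandas 2.3.3). Coordinates are 1-based. Genes came from RefSeq GRCm38.p6, leaving out 333 of 47042 entries with scaffold coordinates, and were placed by midpoint. The steps were tested on simulated data. No test between groups is possible with pooled lists, so the output is counts and values. Named genes are up to 5 per stretch for the 10 longest stretches (12 with ties), genes of lists of at most 60 genes, clusters of 3 or more genes of larger lists in 1 stretch, the 5 longest genes, Rif1 and Lmnb1. The genes of the epidermal, Fbxw, P2ry and microRNA clusters, those of the other gene-rich stretches and those under the closing section were chosen after their values were seen. The bins, gene lists and alternatives were chosen with earlier results of these data known.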

Additional observations from a re-analysis of the deposited data

How the results depend on the processing

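No paired analysis was possible because each group has a single list pooled over its replicates, and for the same reason no replicate could be left out. The counts of bins, stretches, genes and gene lists stayed within 1.5 times of the reported ones, while the share of stretches without a neighbouring siControl 4-cell LAD ranged from 51.5 to 54.9%, the share on chromosome 10 from 5.57 to 6.59% and the median promoter GC from 49.3 to 50.3%, under the alternatives on shortest LAD, bridged gaps, moved borders, left-out chromosome and gene placing, with 2 exceptions. Keeping only stretches of at least 300 kb left 101 of 239 stretches, by construction. Leaving out the stretches with 5 genes or more, chosen after seeing the data, left 150 of 265 genes. Without chromosome 10 its own share has no value. Bridging changed no count, since only 2 to 5 gaps per list are under 300 kb. Which genes are counted depended on the borders: of the 265 genes, 180 were still in shared-gain bins with each LAD extended by 100 kb at both ends and 159 with each shortened, with 316 and 246 genes in all. Of 80 named genes, 60 and 48 were. Placed by transcription start, an alternative added after seeing the data, 195 of the 218 with a promoter entry were. With LADs under 300 kb left out, Olfr979 to Olfr986, the 3 olfactory receptor genes of chromosome 2 and Pramel46 were no longer in shared-gain bins. With each LAD shortened, Psg20, Psg21, Psg23, Fbxw21, Fbxw26, Themis, Dip2c, Lingo2, Rptn, Hrnr, Pramel46 and the same olfactory receptor genes were among those lost. With each LAD extended, Foxc1, P2ry12, P2ry13, P2ry14, Rptn, Hrnr, Pramel46 and the olfactory receptor genes of chromosome 2 were among those lost.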

Other observations

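Some single genes of shared-gain bins were picked by hand after their values were seen, and they stand for no group: of the list of germ layer and neural regulators, 0 of 39 genes lay in shared-gain bins. They include Hand2, a factor of heart and limb (chromosome 8, 57320983 to 57324517), Bmp4, a bone morphogenetic protein (chromosome 14, 46383525 to 46390669), Snai2, a factor of neural crest (chromosome 16, 14705852 to 14709395), Rfx6, a factor of endocrine pancreas (chromosome 10, 51677760 to 51730429), Foxi1 (chromosome 11, 34204341 to 34208089) and Eya4 (chromosome 10, 23102962 to 23350838). For each, 100% of the gene body was in LADs in siRif1 4-cell and siControl 8-cell embryos and 0% in the other lists. Border shifts of 100 kb mattered for some of these: with every LAD shortened, Hand2, Bmp4, Snai2, Sox6 and Ntrk3 were no longer in shared-gain bins, and with every LAD extended Sox6, Zbtb20 and Ntrk3 were not. Larger genes of this kind were cut by borders. Klf12 had 0% of its body in LADs in siControl 4-cell, 100% in siRif1 4-cell, 100% in siControl 8-cell and 20.5% in siRif1 8-cell embryos. For Sox6 the values were 40.2%, 92.8%, 57.8% and 40.2% in the same order, and for Zbtb20 30.9%, 100%, 100% and 42.7%.

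Other genes picked in the same way were Chek1, a checkpoint kinase (chromosome 9, 36708482 to 36726658), Smc2, a condensin subunit (chromosome 4, 52439221 to 52488365), and Ercc5, a nuclease of excision repair (chromosome 1, 44146948 to 44181260). Also picked were the dopamine receptor gene Drd2, the sodium channel gene Scn2a and Pgr, the progesterone receptor gene. Each of these 6 genes had 0% of its body in siControl 4-cell and siRif1 8-cell LADs and 100% in the other lists. With every LAD extended by 100 kb, Chek1, Ercc5 and Scn2a were no longer in shared-gain bins. Ntrk3, a neurotrophin receptor gene, had 45.1%, 70.1%, 100% and 0% in the order above, so it was LAD over its whole body in siControl 8-cell embryos alone.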
